A study of Mus musculus with 4 samples.

Results

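The dachshund genes Dach1 and Dach2 and the eyes absent genes Eya1, Eya2, Eya3 and Eya4 were examined in cultured mouse cortical neurons with and without depletion of DcpS. These 6 genes were taken by symbol from the 32681 genes of the deposited table, and all 6 were present. The set was selected on the fold change of Dach2 between DcpS shRNA and control shRNA in these same 4 libraries, the other genes being added by family. Every value of that difference for the 6 genes is therefore a description. Calls of these genes in the fit over all genes are not read as tests.

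RNA was sequenced from 4 primary cultures of neocortical neurons, taken at embryonic day 13 from wild-type mice of the outbred strain CD-1. Of these, 2 were transfected with control shRNA and 2 with DcpS shRNA, a short hairpin RNA against an enzyme that breaks down the free cap released by mRNA decay. All 4 were grown in Neurobasal medium with B27 supplement, and all carry a transfected hairpin. The titles number the libraries of each group 1 and 2. The labels do not state separate litters or days, so the p-values below reflect the spread among these libraries alone, and that spread could be technical.

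The Dach and Eya proteins belong to the retinal determination network, a set of transcription regulators first described in the fly eye and used again in vertebrate eye, ear, kidney, muscle and brain. Homeodomain proteins of the sine oculis class bind DNA, Eya proteins join them as coactivators and also carry a tyrosine phosphatase domain, and Dach proteins act mostly as corepressors through a domain shared with the Ski oncoprotein family. Paired-box factors such as Pax6 act upstream of or beside them. In the developing cortex Dach1 is known as a gene of neural progenitors.

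The libraries held 17754768 to 21793685 recovered reads. Dcps itself had a normalised read count of 499.8 and 506.6 in the controls against 114.5 and 119.6 with DcpS shRNA, so the targeted transcript followed the labels. Neuronal identity was clear in the markers: Tubb3 and Map2 ranged from 19013 to 21924 normalised reads over the 4 libraries. Non-neuronal RNA was present, and some of its lists differed between the groups. A list of 8 meningeal fibroblast genes summed to 563 and 619 CPM (reads scaled to a common library total) in the controls and to 343 and 331 with DcpS shRNA, with 6 of 8 lower and 0 higher (limma, Benjamini-Hochberg adjusted p under 0.05). A list of 6 astrocyte genes summed to 152 and 162 against 106 and 111 CPM, with 4 of 5 tested genes lower. A list of 8 endothelial and mural genes summed to 36.4 and 40.1 against 23.4 and 21.9 CPM, with 3 of 7 tested genes lower and 0 higher. Within it, Pecam1 had 5.70 and 12.3 normalised reads in the controls against 20.0 and 14.5 with DcpS shRNA. Tagln had 13.3 and 17.4 against 21.8 and 22.3. Both went the other way and were not called. A list of 5 choroid plexus genes summed to 272 and 282 against 203 and 220 CPM, with 2 of 4 tested genes lower (Ttr and Aqp1). Radial glia genes summed to 1488 to 1553 CPM in the controls and 1596 to 1629 with DcpS shRNA, with 2 of 10 higher and 1 lower. No gene of these lists was at 0 in all libraries. In such bulk samples, fewer cells of a type and less RNA per cell cannot be told apart.

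Dach2 had the largest fold change of the 6 genes and Dach1 is its paralog, so the 250 bases before their annotated starts are shown first, 5′ to 3′ on the gene's strand, with CG pairs in capitals. The Dach1 window is chr14:98169766-98170015 on the minus strand and the Dach2 window is chrX:113297260-113297509 on the plus strand, both from RefSeq on GRCm38.p6.
Dach1: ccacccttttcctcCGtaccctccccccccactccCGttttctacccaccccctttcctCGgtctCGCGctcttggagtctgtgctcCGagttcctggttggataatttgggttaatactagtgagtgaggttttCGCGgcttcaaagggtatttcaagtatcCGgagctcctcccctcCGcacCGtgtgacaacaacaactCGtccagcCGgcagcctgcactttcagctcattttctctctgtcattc
Dach2: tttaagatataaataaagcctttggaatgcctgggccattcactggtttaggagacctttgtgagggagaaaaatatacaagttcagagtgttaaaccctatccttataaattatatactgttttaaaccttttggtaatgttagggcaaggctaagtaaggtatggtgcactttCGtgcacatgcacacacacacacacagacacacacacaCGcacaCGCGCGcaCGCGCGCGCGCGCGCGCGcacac
The Dach2 window ends in a run of 48 bases made only of CA, AC, CG and GC steps, a simple repeat, and most of its CG pairs lie near that end. It holds 14 CG pairs at a G and C content of 45.6%, and the Dach1 window holds 13 at 54.8%. The median over 32851 promoter windows of the same length is 6 CG pairs and 52.4%. A second annotated start of Dach2 lies downstream and is preceded by a window of 67.6% G and C, which overlaps an annotated exon and is not printed. Counts per gene do not say which start was used. Of the 6 genes, 4 had a promoter entry, with 6 windows in all. The MEF3 motif TCAGGTT, known as a binding sequence of sine oculis proteins, was searched on both strands and had 0 matches in those 6 windows and a match in 3.49% of all windows. The letters TATAAA occurred at 2 places in the printed Dach2 window and in none of the other 5, against 12.4% of all windows with a match.

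Dach2, the less abundant of the 2 dachshund corepressors, had 2.09 times as much RNA in the DcpS-depleted cultures. The normalised read counts (the deposited values, reads divided by a size factor per library) were 71.3 and 102 in the controls against 177 and 183 with DcpS shRNA. Both DcpS shRNA libraries lay above both controls. The controls differed 1.42-fold from each other, and the DcpS shRNA libraries differed by 1.03-fold. The means were 86.4 ± 21.4 and 180.2 ± 4.31 (SD, n = 2 per group). The fitted log2 fold change was 1.07 (SE 0.17), a 2.11-fold difference on the scale of value + 1.

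Dach2 rests on few reads: 75 and 99 in the controls against 195 and 164 with DcpS shRNA. Exact Poisson intervals at 95%, which cover counting error only, ran from 56.1 to 89.3 and from 82.5 to 124 normalised reads in the controls. With DcpS shRNA they ran from 153 to 204 and from 156 to 214. The intervals of the 2 groups did not touch, and those of the controls overlapped each other. Across genes, libraries of a group differed by more than counting error. Dach2 was also chosen on these same values, so the separation is not a test. With 1 library left out at a time, the log2 fold change ran from 0.82 to 1.33. Of 18110 genes tested, 37 had a higher fitted log2 fold change than Dach2. Of the 12289 genes that averaged 5 CPM or more, a restriction added after the values were seen, 0 did. Dach2 itself averaged 6.73 CPM. Since Dach2 was chosen on this fold change, nothing is read from its rank.

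Dach1, the more abundant paralog, lay slightly lower with DcpS shRNA. The libraries gave normalised read counts of 561 and 562 in the controls against 503 and 454 with DcpS shRNA. The control libraries were almost equal, and both DcpS shRNA libraries lay below them. The means were 561 ± 0.984 and 479 ± 35.1 (SD, n = 2 per group), with a log2 fold change of −0.23 (SE 0.08).

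Within the Dach pair the share of Dach2 was higher with DcpS shRNA, while the sums overlapped. That share carries the Dach2 difference that chose the set, so it is a description and not a separate result. Dach2 made up 11.3% and 15.3% of the reads of the pair in the controls against 26.0% and 28.8% with DcpS shRNA. The 95% Wilson intervals were 9.09% to 13.9% and 12.7% to 18.3% in the controls, and 23.0% to 29.3% and 25.2% to 32.6% with DcpS shRNA, for counting error only. The sum of both genes was 632 and 664 normalised reads in the controls against 681 and 637 with DcpS shRNA, and these groups overlapped. Dach1 remained the larger share of reads in each of the 4 libraries.

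**Figure D1:**
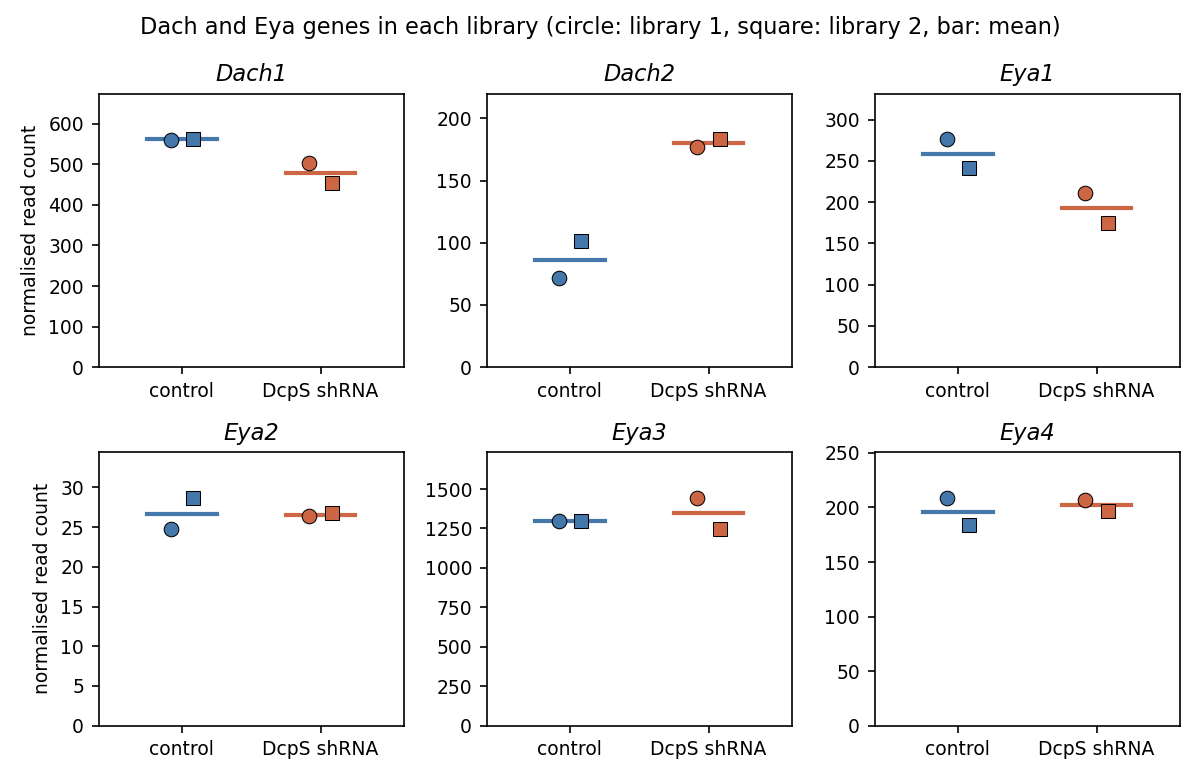
Normalised read count (linear axis from 0) of each Dach and Eya gene in the 2 control and 2 DcpS shRNA libraries; circles are library 1, squares library 2 and bars the group mean. Dach2 sits at 71.3 and 102 in the controls and at 177 and 183 with DcpS shRNA, Dach1 and Eya1 lie lower with DcpS shRNA, and the groups overlap for Eya2, Eya3 and Eya4.

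**Figure D2:**
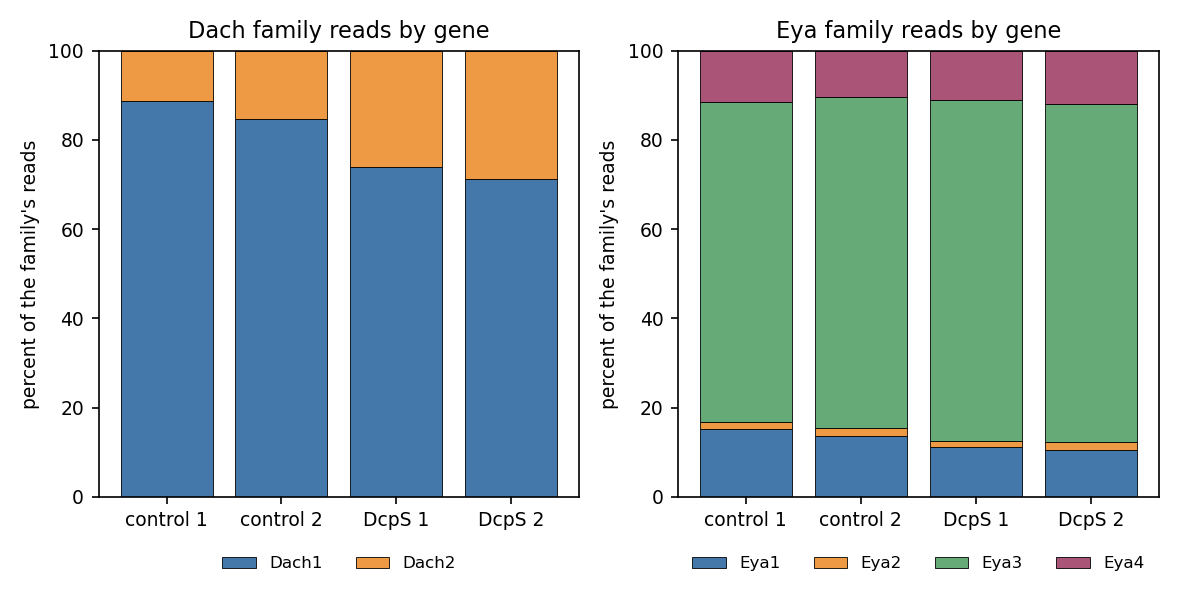
Percent of the Dach reads (left) and of the Eya reads (right) that came from each gene, 1 stacked bar per library. The Dach2 part is 11.3% and 15.3% in the controls against 26.0% and 28.8% with DcpS shRNA, and Eya3 makes up most Eya reads in all 4 libraries.

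Among the Eya coactivators, Eya1 was lower with DcpS shRNA and the other 3 were close to the controls. Eya1, whose loss in people causes branchio-oto-renal syndrome, had a normalised read count of 276 and 241 in the controls against 212 and 174 with DcpS shRNA. The groups did not overlap, but the gap between the nearest libraries was smaller than the spread within either group. The means were 259 ± 25.1 and 193 ± 26.4 (SD, n = 2 per group), with a log2 fold change of −0.42 (SE 0.12). The fibroblast, astrocyte, endothelial and mural, and choroid plexus sums given above were lower in the same 2 libraries as Dach1 and Eya1. Neuronal sums were lower there too. Projection neuron genes summed to 3455 and 3392 CPM in the controls against 3345 and 3305 with DcpS shRNA. GABAergic interneuron genes summed to 17.3 and 17.9 against 15.7 and 15.5 CPM, and Cajal-Retzius genes to 407 and 406 against 399 and 359. The radial glia sum was higher, as was the skeletal muscle and placode sum at 1.68 and 1.40 against 2.84 and 2.08 CPM. The oligodendrocyte lineage, microglia and intermediate progenitor sums overlapped between the groups. Of 5 tested oligodendrocyte lineage genes, 1 was called higher (Mbp) and 1 lower (Pdgfra), so that sum joins genes of opposite direction. Of 5 tested microglia and macrophage genes, 1 was called higher (Laptm5) and 0 lower. The part of any of these cell types in the differences of Dach1 and Eya1 was not tested.

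Eya3, the most abundant member, had a normalised read count of 1296 and 1300.4 in the controls against 1446 and 1249 with DcpS shRNA. The DcpS shRNA libraries lay on either side of the controls. Its log2 fold change was 0.05 (SE 0.07). Eya4, a gene of inner ear and heart in which mutations cause hearing loss, was at 209 and 184 in the controls against 207 and 197 with DcpS shRNA. Both of its DcpS shRNA values lay between the control values, with a log2 fold change of 0.04 (SE 0.12).

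Eya2, known from muscle and placode development, was the rarest Eya transcript. It had 26 and 28 reads in the controls against 29 and 24 with DcpS shRNA, or 24.7 and 28.7 against 26.3 and 26.8 normalised reads. The groups overlapped, and the log2 fold change of 0.00 had an SE of 0.27, so a difference within that error was not detectable at this depth. A processed pseudogene on the opposite strand within Eya2, Gm11460, was itself at 18.1 and 36.9 against 23.6 and 30.2 normalised reads. Whether counting used strand is not given in the sources used here, so reads of Eya2 and of its antisense neighbours may not be fully separated.

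Of the 6 genes, 1 (Dach2) was past the threshold of the fit over all genes (limma, Benjamini-Hochberg adjusted p under 0.05), where 5.79% of the 18110 tested genes were. By direction, 2.14% of tested genes were called higher and 3.65% lower. The 2 groups did not overlap for 3 of the 6, Dach1, Dach2 and Eya1, against 48.4% of all tested genes. Since the genes were chosen with this contrast in view, nothing is read from these counts. All 6 passed the filter on low counts. Among the alternatives that left out no library, Eya1 was also past the threshold without an expression filter and with the set number as a replicate block. These calls are not read as results either.

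**Figure D3:**
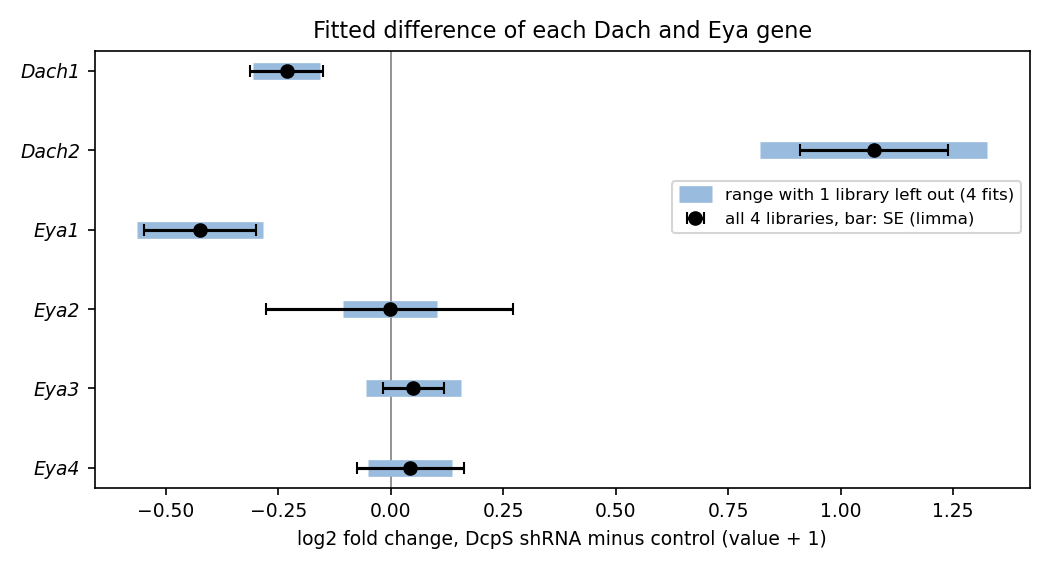
Fitted log2 fold change of each gene, DcpS shRNA minus control, with its SE (black) and the range over 4 fits that each leave out 1 library (blue). Dach2 spans 0.82 to 1.33, Dach1 and Eya1 stay below 0, and the ranges of Eya2, Eya3 and Eya4 span 0.

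Levels can be compared between genes only per length, and were divided by the annotated exon length of each gene. On the scale of normalised reads per kilobase of exon, the control means were 230 ± 0.544 for Eya3 and 76.7 ± 0.134 for Dach1 (SD, n = 2). They were 33.1 ± 3.21 for Eya1 and 20.8 ± 1.91 for Eya4. At the foot of the order stood Eya2 at 9.01 ± 0.957 and Dach2 at 8.76 ± 2.17. The 2 lowest were not apart in the controls, since the Eya2 values of 8.34 and 9.69 lay inside the Dach2 values of 7.22 and 10.3. Every other pair of neighbours was separated in both control libraries.

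With DcpS shRNA, Dach2 stood at 18.3 ± 0.437 normalised reads per kilobase and Eya2 at 8.97 ± 0.113 (SD, n = 2), and the 2 genes no longer overlapped. Eya1 at 27.1 and 22.3 approached Eya4 at 22.0 and 20.9. Both Dach2 values, 17.95 and 18.57, remained below those of Eya4. With the longest annotated transcript as the length, Dach2 stood above Eya2 in the controls too, at 16.8 against 10.9. The order of these 2 genes in the controls therefore depends on the length used.

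**Figure D4:**
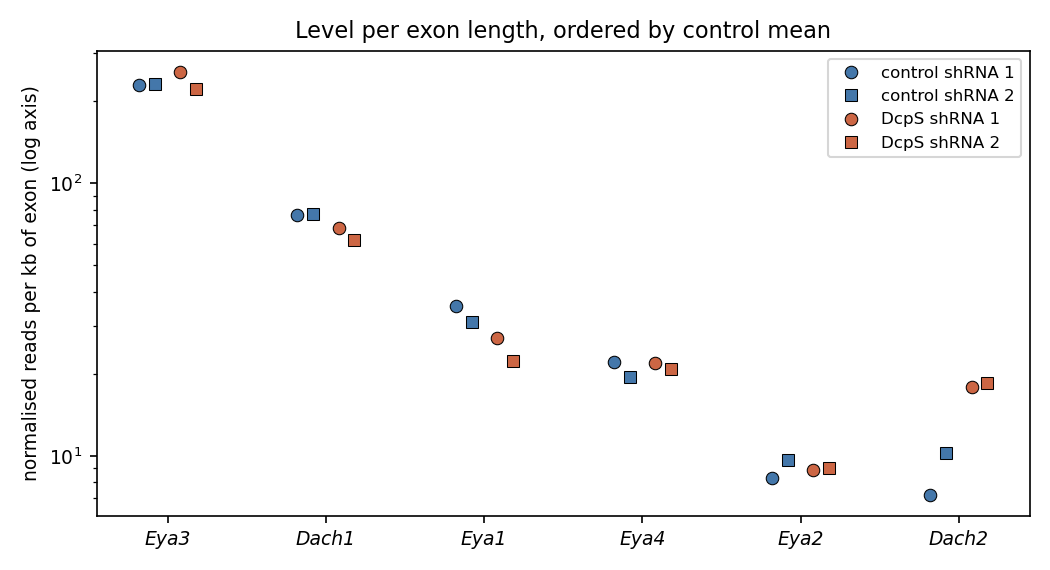
Normalised reads per kilobase of annotated exon (log axis) for each gene and library, ordered by the control mean; blue marks are controls and orange marks DcpS shRNA. Eya3 leads at 230 in the controls, and Dach2 moves from beside Eya2 at about 9 to 18.3.

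The members lie on 6 chromosomes in long loci (GRCm38, GENCODE M21). Dach2 spans 538877 bases on the plus strand of chromosome X (113297510 to 113836386), and Dach1 382913 bases on the minus strand of chromosome 14 (97786853 to 98169765). Eya1 lies on chromosome 1 (14168954 to 14310235, minus strand) and Eya2 on chromosome 2 (165595032 to 165771727, plus strand). Eya3 lies on chromosome 4 (132638987 to 132724765, plus strand) and Eya4 on chromosome 10 (23102963 to 23350786, minus strand). The longest annotated proteins have 751 residues for Dach1 and 634 for Dach2, and 526 to 639 for the Eya genes.

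Within 500000 bases of the 6 loci lay 45 protein-coding genes, of which 35 were tested and 1 was called, against 5.79% of all tested genes. At this number nothing is read from the count. That gene was Sulf2, a heparan sulfate 6-O-endosulfatase 301362 bases from Eya2, which fell by 0.36 on the log2 scale (limma, Benjamini-Hochberg adjusted p 0.00331). Around Dach1 no coding gene was annotated in that window. The only one around Dach2 was Chm, the choroideremia gene 111993 bases away, with a log2 fold change of 0.18 (limma, Benjamini-Hochberg adjusted p 0.156). Because Dach2 is X-linked, sex-linked transcripts were read in every library. Xist, the X-inactivation RNA, ranged from 24482 to 29455 normalised reads and the Y-linked helicase gene Ddx3y from 876 to 934, so RNA from both sexes was present in each library. The adjusted p-values were 0.183 for Xist and 0.854 for Ddx3y (limma, Benjamini-Hochberg).

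Short hairpin RNAs can also lower transcripts that match only the guide's seed. The 7-base words ACGTGCA and CACGTGC both occur in the Dcps transcript, and an annotated 3′ UTR with either word was found for 34.7% of genes called lower, 6.79% of genes called higher and 9.48% of all 13724 tested genes scanned. The words were chosen with earlier results of these data known, so these shares are a description and not a test. Length of the 3′ UTR was not taken into account, and whether the words belong to the hairpin was not tested. Of the 6 members, Eya2 alone had a word, at base 560 of a 3′ UTR of 613 bases, shown here with the word in capitals.
Eya2: gtttaggcttcCACGTGCtagcttttcaag
Neither word was present in the annotated 3′ UTRs of Dach1, Dach2, Eya1, Eya3 or Eya4. Whether the hairpin acted on any member through a seed was not tested.

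The genes with the profile nearest to Dach2 over the 4 libraries were mostly rare transcripts. Likeness was measured as the Euclidean distance between log2(normalised read count + 1) values, each centred on its own mean over 4 libraries. The 5 nearest of the tested genes were Gm48695, Xlr3d-ps, Siglece, Npy and Slc27a6, at distances of 0.08 to 0.16. Npy, which encodes neuropeptide Y, had 21.9 and 27.7 normalised reads in the controls against 55.4 and 54.8 with DcpS shRNA. The other 4 had between 3.801 and 18.17 normalised reads in every library, so their likeness rests on few reads. Among genes that averaged 5 CPM or more, a restriction added after the values were seen, the nearest were Rgs8, Ccn3, Plxnd1, Fndc5 and Gabra5, at distances of 0.42 to 0.47. Each of these 5 was higher with DcpS shRNA by 0.63 to 0.97 on the log2 scale. The distances share the contrast that chose Dach2 and were given no test.

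The partners of the Dach and Eya proteins were examined by role. A further 52 genes were set out in lists, and 34 passed the filter on low counts. Of these, 2 rose, 3 fell and 29 did not pass (limma, Benjamini-Hochberg adjusted p under 0.05). The called share was 14.7%, against 5.79% of all tested genes in either direction. At an unadjusted p under 0.05, 16 of the 34 genes (47.1%) were past the threshold, against 18.7% of all tested genes. By list these were 8 of 14 reported targets, 3 of 9 other partners of Eya or the sine oculis proteins, 2 of 5 corepressors and partners of Dach, 2 of 3 Ski family genes and the 1 tested paired-box gene. The lists were chosen with results of these data known, and nothing particular to them is read from these shares. Their median log2 fold change and that of all tested genes were both 0.00.

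The sine oculis homeodomain factors examined, the DNA-binding partners of Eya, were rare in these cultures. Six5 was the most abundant, at 122 and 119.99 normalised reads in the controls against 115 and 129 with DcpS shRNA. Six4 followed at 56.1 and 58.5 against 56.3 and 46.9. Both groups overlapped, and neither of these 2 tested genes was called (0 at an unadjusted p under 0.05, and 0 by edgeR and by DESeq2). Six2, Six3 and Six6 did not pass the filter, with at most 13.3 normalised reads in any library. Of 9 paired-box genes only Pax6, a regulator of radial glia and of eye development, was tested. It had 2680 and 2581 normalised reads in the controls against 2913 and 2870 with DcpS shRNA, and was not called (log2 fold change 0.14, SE 0.05, limma, Benjamini-Hochberg adjusted p 0.161). The next most abundant paired-box gene, Pax5, had at most 4.10 normalised reads in any library.

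In the Ski family, which shares the DNA-binding fold of Dach, the genes went in opposite directions. The corepressor gene Ski fell from 3012 and 2875 normalised reads to 2509 and 2326 (log2 fold change −0.28, SE 0.06, limma, Benjamini-Hochberg adjusted p 0.00559). Its 3′ UTR carries the word ACGTGCA. Skida1, which encodes a Ski and Dach domain protein, rose from 984 and 848 to 1120.3 and 1085 (0.27, SE 0.07, adjusted p 0.0354). Skil stood at 1628 and 1501 against 1526 and 1571 and was not called. Leaving out control 1 ended the call of Ski (adjusted p 0.0779 by limma). Skida1 was no longer called without control 2 (0.420), without DcpS shRNA 1 (0.0661) and with DESeq2 (0.188).

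Of 5 corepressors and partners of Dach, Jun, the AP-1 subunit whose activity Dach1 is known to repress, was the 1 called gene. It rose from 991 and 930.2 normalised reads to 1243 and 1115 (log2 fold change 0.29, SE 0.07, limma, Benjamini-Hochberg adjusted p 0.0154). It was no longer called without control 2 (adjusted p 0.124 by limma), without DcpS shRNA 1 (0.0707) and with DESeq2 (0.0812). The corepressor gene Ncor1 and the histone deacetylase gene Hdac3, the most abundant of the list, had log2 fold changes of −0.13 (SE 0.05) and 0.09 (SE 0.05) and were not called. Sin3a and Smad4 stood at 0.05 and −0.09.

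Among 9 other partners and substrates of the Eya or sine oculis proteins, the G-protein subunit gene Gnai2 was the 1 called gene. It fell from 4635 and 4539 normalised reads to 3552 and 3641 (log2 fold change −0.35, SE 0.05, limma, Benjamini-Hochberg adjusted p 0.000482). Neither of the words given above was found in its 3′ UTR. H2ax, whose C-terminal tyrosine is dephosphorylated by Eya, and Baz1b, the kinase gene for that residue and the most abundant of the list, had log2 fold changes of 0.08 (SE 0.07) and −0.02 (SE 0.06). Gnaz, the other G-protein subunit on the list, was at 429 and 444 against 497 and 542 normalised reads and was not called (limma, Benjamini-Hochberg adjusted p 0.0955).

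Of 19 reported targets of the network, 14 were tested and 1 was called. Slc12a2, the sodium-potassium-chloride cotransporter, fell from 1881 and 2088 normalised reads to 1536 and 1545.5 (log2 fold change −0.36, SE 0.06, limma, Benjamini-Hochberg adjusted p 0.00145). Its 3′ UTR carries the word CACGTGC. The most abundant targets, the membrane linker gene Ezr and the cell-cycle inhibitor gene Cdkn1b, had log2 fold changes of −0.18 (SE 0.05) and −0.04 (SE 0.05) and were not called. The calls of Gnai2 and Slc12a2 held in all 13 alternative settings.

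**Figure D5:**
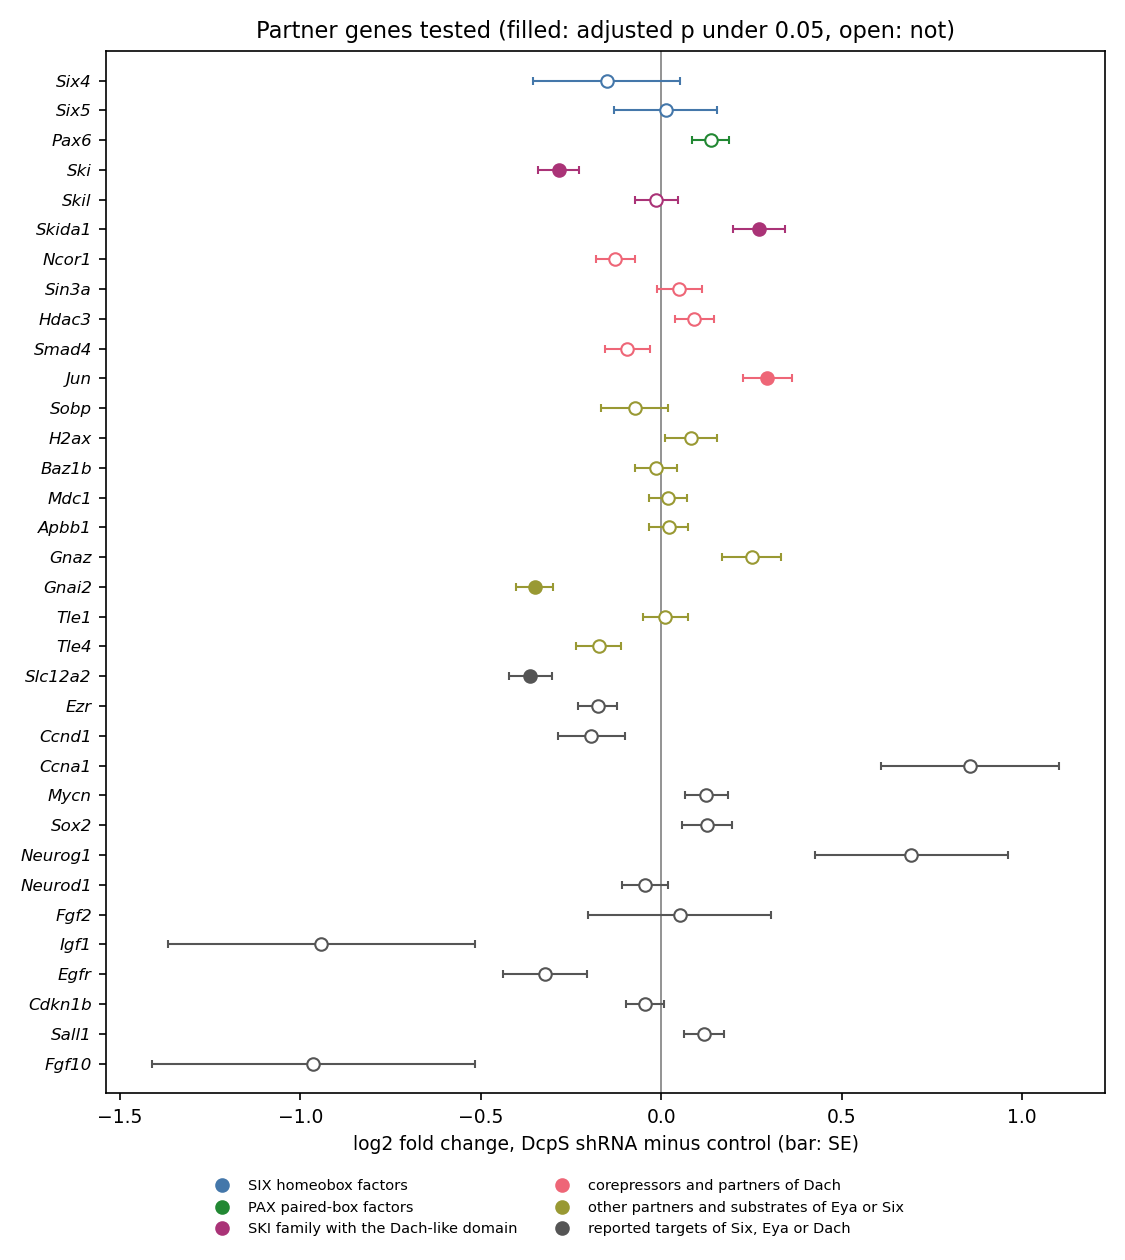
Log2 fold change, DcpS shRNA minus control, with its SE, of the 34 tested partner genes, coloured by list; filled marks passed the test over all genes. The 5 filled genes are Ski, Gnai2 and Slc12a2 below 0 and Skida1 and Jun above 0.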

How the data were processed

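Whole-culture RNA was measured in 4 libraries. The submitters' processing notes name HISAT2 2.2.0, SAMtools 1.3.1, Picard, featureCounts and DESeq2 with the build GRCm38. Annotation, strand use and multi-mapping are not stated in the sources used here. The deposited signal had been scaled per library by the authors, since each value is a whole multiple of its column's smallest positive value. Division by this step returned whole reads for 100% of values (tolerance 0.001). The implied size factors were 0.895 to 1.10. A count of 0 allows up to 3 reads, or 0.138 to 0.169 CPM.

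The test was limma 3.58.1 (R 4.3.3) on log2(value + 1), with an intensity trend, robust moderation, a group term alone, and two-sided Benjamini-Hochberg adjustment over 18110 genes kept by edgeR's filterByExpr (minimum count 10). This scale understates changes of low genes. With 2 against 2, an exact permutation test of 1 gene cannot go below 0.333. On simulated reads for this comparison, with 18110 genes of which 200 changed, 48% of 1.3-fold, 72% of 1.5-fold and 80% of 2-fold changes were recovered, and 5 of 152 calls were false. Libraries of a group differed by more than sampling noise (chi-square per degree of freedom 2.04 and 3.73).

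Members and lists were chosen with earlier results of these data known. Named were the 6 members, partner genes past the test, the sine oculis genes, the 2 most abundant genes of each partner list, the 5 genes nearest to any member with a log2 fold change of at least 0.5 in size (only Dach2), and Dcps. Sulf2, Chm, Xist, Ddx3y and Gm11460 were named after their values were seen, as were the further partner genes and the marker genes. H2ax was listed under its older symbol and matched through RefSeq. Some genes of the partner lists are not reported here and are left out of the counts. Alternatives covered pseudocount, filter, scaling, edgeR 4.0.16, DESeq2 1.42.0, the set number as a block, and leaving out each library.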

Additional observations from a re-analysis of the deposited data

How the results depend on the processing

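Over the alternatives that kept all 4 libraries, the log2 fold change of Dach2 ran from 1.04 to 1.08 and no member changed direction. With 1 library left out, the direction of Dach1, Dach2 and Eya1 is fixed by groups that do not overlap, and Eya2, Eya3 and Eya4, which were not called, changed sign in some runs. In these runs, log2 fold changes ran from 0.82 to 1.33 for Dach2, −0.31 to −0.16 for Dach1, −0.56 to −0.28 for Eya1, −0.11 to 0.10 for Eya2, −0.06 to 0.15 for Eya3 and −0.05 to 0.14 for Eya4. The count of genes called, 1048 in all, was 448 with DESeq2 and ran from 594 to 1439 with 1 library left out: 670 without control 1, 594 without control 2. Partner genes called, 5 in all, were 3 with DESeq2 and ran from 3 to 6 with 1 library left out, the lowest without control 2. The cause was not tested. The set number in the titles is not stated to mark a shared preparation, and 2 pairs are too few to settle the pairing from the data (correlation of deviations 0.0429 across genes). With the set number as a replicate block, 1626 genes, 9 partner genes and 2 members (Dach2 and Eya1) were called. Control levels per kilobase with the longest transcript as length were 107.6 for Dach1, 16.8 for Dach2, 59.3 for Eya1, 10.9 for Eya2, 250.3 for Eya3 and 37.0 for Eya4, a shorter length by construction. Of the 5 genes nearest to Dach2, 1 was shared at a pseudocount of 5, and 0 when only genes of at least 5 CPM were compared, since 5 rare genes were then left out. Depth limits Eya2 most, at 24 to 29 reads a library.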
